A study of Mus musculus with 7 samples.

Results

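Intraflagellar transport (IFT) and BBSome genes encode the machinery that builds the primary cilium and moves cargo along it. The 33 genes described here were chosen by name from the 21965 genes of a count table of mouse hippocampus, and all 33 had a row in it. They comprised 12 subunits of the IFT-B complex, 6 of IFT-A, 7 of the BBSome, 2 chaperonin-like BBS proteins, 4 kinesin-2 genes and 2 dynein-2 genes. All 33 passed the filter on low counts.

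Hippocampal polyadenylated RNA was sequenced in 7 libraries. The Control group had 3 libraries, labelled as blank control. The NIHHL group had 4 libraries of noise-induced hidden hearing loss, a model in which noise harms hearing without the lasting threshold shift of ordinary deafness. Exposure was to 110 dB over 2 h, with tissue taken 1 month later per the series' design text. The sources used here give no strain, sex or age, nor whether the libraries are of separate animals. P-values therefore measure the spread between these libraries, which may be technical.

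The primary cilium is a single antenna on most neurons and astrocytes that carries receptors and the Hedgehog pathway. IFT-B trains pulled by kinesin-2 carry cargo from the base to the tip, and IFT-A trains pulled by dynein-2 return it. The BBSome is a coat of Bardet-Biedl syndrome proteins that rides on these trains and removes membrane receptors from the cilium. The same trains also build the motile cilia of ependymal cells, which line the ventricles.

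Total counts per library lay between 14871376 and 24515146, both in Control. Hippocampal identity was checked on markers: Camk2a, a kinase of excitatory neurons, stood at 3888 ± 504 CPM (counts scaled to library size) in Control (mean ± SD, n = 3) and 4080 ± 144 CPM in NIHHL (n = 4). Of the 8 neuron markers, which include Camk2a, 3 were higher and 5 lower in NIHHL (median log2 fold change -0.042). Among them 1, lower in NIHHL, was at an unadjusted p under 0.05 by edgeR. All 5 dentate granule and all 4 CA1 markers were detected, with 5 of 5 and 2 of 4 higher in NIHHL (median log2 fold change 0.25 and 0.00061). At an unadjusted p under 0.05 by edgeR there were 1 dentate granule marker and 0 CA1 markers. The 14 choroid plexus markers, from the tissue that secretes cerebrospinal fluid, summed to between 208 and 7272 CPM in Control and between 682 and 8920 CPM in NIHHL, with 14 of 14 higher in NIHHL (median 0.71) and 0 at an unadjusted p under 0.05. Astrocyte markers were higher in 7 of 7 (median 0.07, 1 at that p). Oligodendrocyte markers, of myelinating cells, were higher in 5 of 5 (median 0.21, 3 at that p), and their sums overlapped (6309 to 7951 against 7243 to 8631 CPM). Microglia markers were higher in 3 of 5 (median 0.038, 0 at that p) and endothelium markers in 1 of 4 (median -0.13, 0 at that p). Among all tested genes 49.9% were higher in NIHHL and 3.63% were at that p in either direction. The part of these cell types in the results was not tested. In bulk tissue, fewer cells of a type and less RNA per cell cannot be told apart.

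Many cilium genes carry an X-box in the promoter, the site bound by RFX transcription factors. It was searched as the arms GTTNCC and GGNAAC with 0 to 3 bases between them, on both strands, in windows from 250 bases before to 50 bases after the transcription start (RefSeq, GRCm38.p6). A promoter was found for 29 of the 33 genes, 1 window each. With at most 1 mismatch over the 10 fixed letters, 7 of these 29 windows (24.1%) held the pair, against 5.44% of 32851 windows of all genes. With at most 2 mismatches the shares were 55.2% and 34.4%, and an exact GTTGCC stood in 44.8% and 12.5%. GTTGCC is an arm of many of the pairs, so these counts overlap, and base composition was not matched.

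These 5 stretches show the matches of genes from different parts of the machinery. Each reads 5′ to 3′ on the gene's strand, ends before the transcription start and has the matching pair in capitals.
Bbs7 (BBSome, chr3:36613457-36613550, minus strand): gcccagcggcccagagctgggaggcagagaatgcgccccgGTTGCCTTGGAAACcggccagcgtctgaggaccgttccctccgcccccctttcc
Ift57 (IFT-B, chr16:49699194-49699286, plus strand): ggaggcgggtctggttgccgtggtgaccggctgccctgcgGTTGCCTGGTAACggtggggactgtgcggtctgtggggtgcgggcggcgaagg
Kif17 (kinesin-2, chr4:138262138-138262230, plus strand): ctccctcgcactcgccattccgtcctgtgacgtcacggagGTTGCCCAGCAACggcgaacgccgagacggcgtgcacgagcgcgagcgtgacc
Ift22 (IFT-B, chr5:136908047-136908140, plus strand): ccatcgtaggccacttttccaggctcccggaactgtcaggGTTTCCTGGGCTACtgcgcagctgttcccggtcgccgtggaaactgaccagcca
Wdr19 (IFT-A, chr5:65199622-65199695, plus strand): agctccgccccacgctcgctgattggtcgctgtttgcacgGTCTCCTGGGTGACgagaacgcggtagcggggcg

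The pairs of Bbs7 and Ift57 had 0 mismatches, those of Kif17 and Ift22 had 1, and that of Wdr19 had 2. They began 121, 60, 73, 63 and 34 bases before the start, in that order of genes Bbs7, Ift57, Kif17, Ift22 and Wdr19. For Kif17 this RefSeq start lies inside the span of the gene in GENCODE M21 (chr4:138250435-138301967), so it is not the outermost annotated start. A match is a description of the letters and not evidence of binding.

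The question was whether the transport machinery of the cilium differed in the hippocampus 1 month after noise. None of the 33 genes passed an adjusted p of 0.05 in edgeR's quasi-likelihood test (0 called), where 0.00% of all 14417 tested genes were called. At an unadjusted p under 0.05 there were 2, both higher in NIHHL (6.06% of the 33), beside 3.63% of all genes in either direction and 2.32% in the higher direction. They were Wdr19 and Wdr35, both of IFT-A. DESeq2 called 0 of the 33 and 0.0220% of its 18177 genes, and limma-voom called 0 of the 33 and 0.00% of 14417. At an unadjusted p under 0.05 each had 1 of the 33, beside 2.46% of all genes for DESeq2 and 3.77% for limma-voom.

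Fold changes were small in both directions. The mean was higher in NIHHL for 20 genes and lower for 13, with a median log2 fold change (NIHHL minus Control) of 0.016 beside -0.00045 over all tested genes, of which 49.9% were higher. In 26 of the 33 the estimate was under 1.1-fold either way. The 95% interval lay within 1.5-fold either way for 32 of the 33, beside 78.1% of all genes, and Ift43 alone had an interval that reached past it. In 1 gene, Wdr19 (3.03% of the 33), the groups did not overlap, with all 4 NIHHL libraries above the 3 of Control. Among all genes 5.20% did not overlap in either direction and 2.84% in the higher one.

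**Figure D1:**
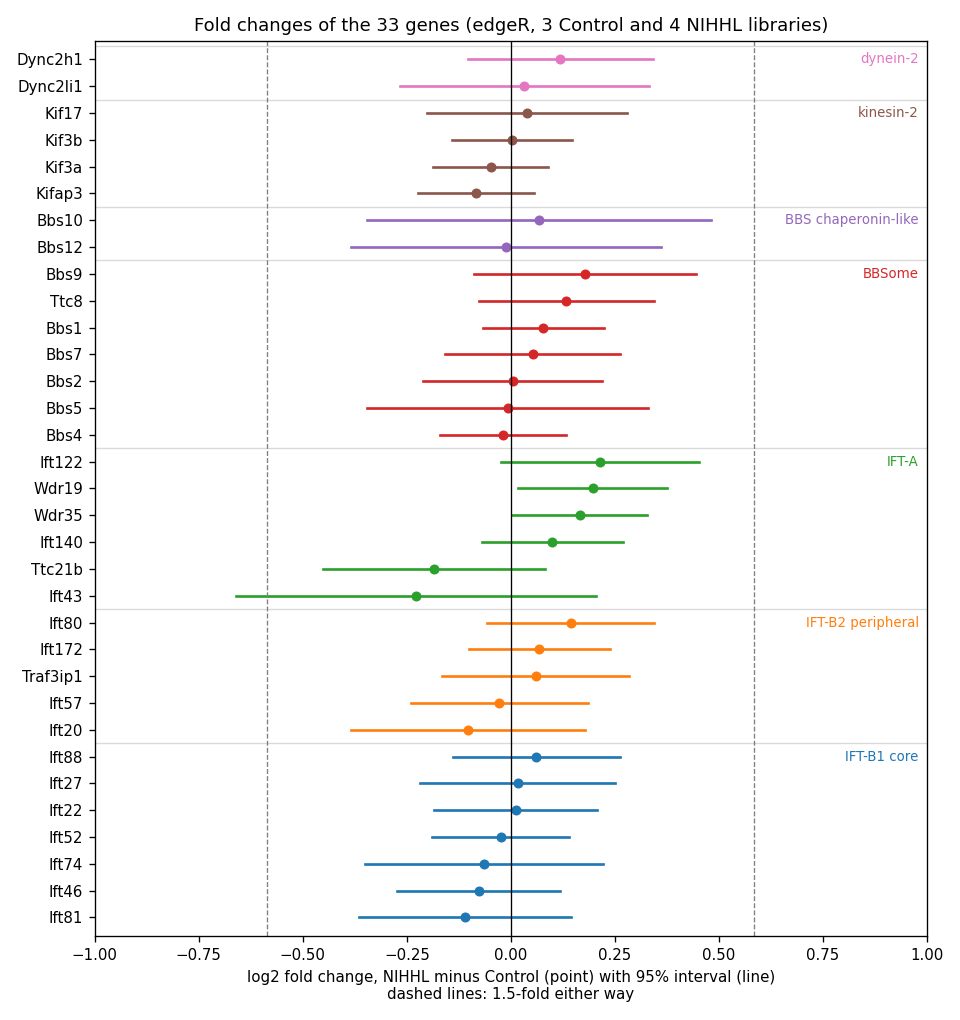
Log2 fold change of each of the 33 genes (point, edgeR) with its 95% interval (line), coloured by role, with dashed lines at 1.5-fold either way. Intervals of Wdr19 and Wdr35 lie just above 0, and that of Ift43 is the widest, from -0.66 to 0.21.

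IFT-B is the larger train complex, and its core of Ift22, Ift27, Ift46, Ift52, Ift74, Ift81 and Ift88 had 3 genes higher and 4 lower in NIHHL (median log2 fold change -0.025, and 0.031 without Control replicate 2). Ift81, which binds tubulin together with Ift74, stood at 23.1, 22.9 and 24.6 CPM in Control replicates 1 to 3 and at 19.9, 25.5, 18.4 and 23.5 CPM in NIHHL replicates 1 to 4. Its NIHHL libraries lay on both sides of the Control range, and the log2 fold change was -0.11 (SE 0.12). Ift46, another core subunit, stood at 34.9, 40.3 and 33.6 CPM in Control, against 36.9, 34.998, 34.1 and 31.4 CPM in NIHHL. Here the highest library was Control replicate 2 and the groups overlapped (-0.08, SE 0.09).

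The other core subunits were as close between groups. Ift88, whose loss abolishes cilia in mice, was at 14.5 ± 0.838 CPM in Control and 15.1 ± 0.335 in NIHHL. Ift52 was at 27.9 ± 0.596 and 27.4 ± 0.808 CPM, the lowest spread of the 33 genes, with a coefficient of variation of 2.58% over the 7 libraries. Ift22 and Ift27, small GTPases of the train, differed by 0.011 (SE 0.09) and 0.016 (SE 0.11) on the log2 scale, and Ift74 by -0.07 (SE 0.13).

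The peripheral part of IFT-B had 3 genes higher and 2 lower (median 0.06, and 0.0076 without Control replicate 2). Ift80 stood at 25.96, 22.9 and 26.3 CPM in Control, against 25.3, 29.998, 28.1 and 27.2 CPM in NIHHL. NIHHL replicate 1 lay within the Control range, below the remaining 3, which exceeded it (log2 fold change 0.14, SE 0.09, and 0.084 without Control replicate 2). Ift172, the subunit that contacts the tip machinery, stood at 49.0, 41.4 and 45.9 CPM in Control, against 50.2, 47.1, 45.7 and 47.3 CPM in NIHHL. Its groups overlapped (0.07, SE 0.08).
Ift20, which also works at the Golgi, had a log2 fold change of -0.10 (SE 0.13), Ift57 -0.028 (SE 0.10) and Traf3ip1 0.06 (SE 0.10).

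IFT-A drives return transport and the entry of membrane receptors into the cilium. It had 4 genes higher and 2 lower and, of the 7 roles, the highest median log2 fold change, 0.13. Without Control replicate 3 dynein-2 was higher, at 0.119 against 0.105 for IFT-A. Wdr19 (ENSMUSG00000037890, chromosome 5), known as Ift144 and part of the IFT-A core, stood at 26.5, 27.9 and 25.8 CPM in Control, against 30.3, 31.2, 28.2 and 32.8 CPM in NIHHL. The groups did not overlap, although NIHHL replicate 3 was only just above Control replicate 2. The log2 fold change was 0.20 (SE 0.08, 95% interval 0.016 to 0.38), with an adjusted p = 0.996 by edgeR.

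Wdr35 (ENSMUSG00000066643, chromosome 12), known as Ift121, stood at 45.6, 49.8 and 47.9 CPM in Control, against 56.0, 49.1, 55.9 and 53.4 CPM in NIHHL. Of the NIHHL libraries 3 exceeded the whole Control range, and replicate 2 fell inside it. Its log2 fold change was 0.17 (SE 0.07, 95% interval 0.0028 to 0.33), with an adjusted p = 0.996 by edgeR. Neither gene passed the test over all genes. Over all alternatives run, the unadjusted p by edgeR, DESeq2 or limma-voom ran from 0.0246 to 0.347 for Wdr19 and from 0.0231 to 0.537 for Wdr35. That of Wdr19 was above 0.05 without Control replicate 1 or 3 or NIHHL replicate 1, 2 or 4, and that of Wdr35 without Control replicate 1 or 3 or NIHHL replicate 1, 3 or 4. Both were also above it with a replicate block, with the mean ependymal marker level as a covariate and with a correction for transcript length, and Wdr35 with DESeq2, limma-voom or no filter on low counts.

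The remaining IFT-A subunits went in both directions, and they are given here because of the pattern in Wdr19 and Wdr35. Ift122, a core subunit, was at 30.0 ± 3.56 CPM in Control and 34.8 ± 3.69 in NIHHL (log2 fold change 0.21, SE 0.11, and 0.12 without Control replicate 3), and Ift140 at 27.3 ± 1.15 and 29.2 ± 0.958 CPM (0.10, SE 0.08). Ttc21b, the peripheral subunit Ift139, was at 13.3 ± 1.49 CPM in Control and 11.8 ± 1.31 in NIHHL (-0.18, SE 0.12, and -0.09 without Control replicate 2).
Ift43, a small peripheral subunit, stood at 6.74, 6.80 and 8.68 CPM in Control, against 7.04, 6.95, 7.21 and 4.07 CPM in NIHHL. NIHHL replicate 4 was the only NIHHL library below the Control range, and the log2 fold change went from -0.23 (SE 0.20) to -0.07 (SE 0.15) without it.

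Summed over its 6 genes, IFT-A reached 153, 157 and 148 CPM in Control replicates 1 to 3 and 166, 169, 169 and 162 CPM in NIHHL replicates 1 to 4. These sums did not overlap. They are a description of genes picked out after their values were seen, and without Wdr19 and Wdr35 the sums did overlap, at 74.7 to 80.4 CPM in Control and 75.6 to 89.1 in NIHHL. All 33 genes together summed to 1177 ± 7.89 CPM in Control and 1180 ± 18.4 CPM in NIHHL. Of these totals kinesin-2 gave 470.5 ± 12.9 and 452.2 ± 17.8 CPM, lower in NIHHL where IFT-A was higher. The near-equal totals therefore weigh the most abundant genes and do not show that each role was level.

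The BBSome had 5 genes higher and 2 lower, with a median log2 fold change of 0.05, which was 0.002 without Control replicate 1. Bbs9, a scaffold subunit, stood at 10.1, 10.7 and 13.3 CPM in Control, against 12.4, 12.5, 14.3 and 12.3 CPM in NIHHL. Control replicate 3 lay above 3 of the 4 NIHHL libraries. Its log2 fold change was 0.18 (SE 0.12). It was 0.30 without Control replicate 3, 0.105 without Control replicate 1, 0.125 without NIHHL replicate 3 and 0.033 with the mean level of ependymal markers as a covariate. Ttc8, which is BBS8, stood at 15.04, 13.9 and 14.7 CPM in Control, against 17.3, 15.98, 15.97 and 14.6 CPM in NIHHL, where only replicate 4 fell within the Control range (0.13, SE 0.10).

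Bbs1, the subunit that the small GTPase Arl6 recruits to membranes, was at 45.2 ± 0.640 and 47.7 ± 1.64 CPM in Control and NIHHL. Bbs4, which was at 50.6 ± 1.92 and 49.99 ± 2.16 CPM, had a log2 fold change of -0.018 (SE 0.07). Bbs2, Bbs5 and Bbs7 lay between -0.0074 and 0.05 on that scale. Bbs10 and Bbs12, chaperonin-like proteins that help assemble the BBSome, were the lowest of the 33 by CPM. Bbs10 stood at 3.30, 4.66 and 3.35 CPM in Control, against 4.23, 3.22, 4.07 and 4.36 CPM in NIHHL, with every NIHHL library but replicate 2 inside the Control range (0.07, SE 0.19). The lowest count of any gene was 49, for Bbs10 in Control replicate 1, which limits its precision.

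Kinesin-2 is the motor from base to tip, made of Kif3a, Kif3b and the adaptor Kifap3. It also carries cargo in axons, so its transcripts in neurons are not of the cilium alone. Kifap3 stood at 285, 271 and 288 CPM in Control, against 262, 269, 249 and 280 CPM in NIHHL. Only NIHHL replicate 4 lay within the Control range and the other 3 NIHHL libraries lay below it (log2 fold change -0.08, SE 0.06). Kif3a stood at 83.9, 81.9 and 83.9 CPM in Control, against 77.6, 84.6, 78.3 and 81.5 CPM in NIHHL. Here 3 NIHHL libraries lay below the Control range and 1 above it (-0.05, SE 0.06).
Kif3b had a log2 fold change of 0.0018 (SE 0.07, 95% interval -0.14 to 0.15). Kif17, a kinesin-2 that works as a homodimer and also moves NMDA receptors in dendrites, had 0.038 (SE 0.11).

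Dynein-2 returns the trains. Its heavy chain Dync2h1 stood at 35.3, 31.6 and 38.4 CPM in Control, against 37.3, 35.2, 35.7 and 44.2 CPM in NIHHL. NIHHL replicate 4 was the highest library and the other 3 lay within the Control range (log2 fold change 0.12, SE 0.10). It was 0.042 without NIHHL replicate 4, 0.049 without Control replicate 2 and 0.19 without Control replicate 3. The light intermediate chain Dync2li1 was at 17.5 ± 1.91 CPM in Control and 17.9 ± 3.07 in NIHHL (0.032, SE 0.14). For the 12 genes given library by library under the naming rule, exact two-sided permutation tests over 35 splits of log2 CPM gave a lowest p of 0.0571, for Wdr19, where 0.0286 is the smallest possible.

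**Figure D2:**
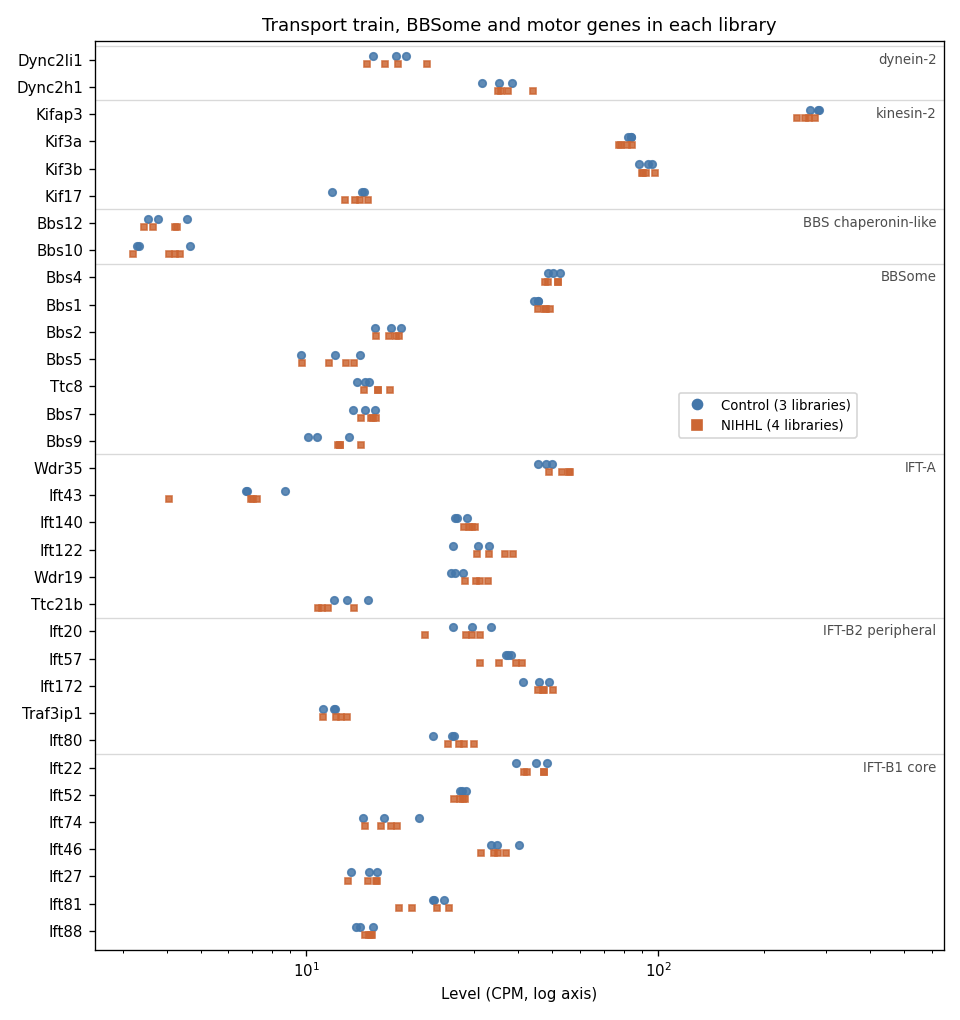
Level of each of the 33 genes in every library on a log axis of CPM, with Control as circles and NIHHL as squares, ordered by role. Circles and squares overlap in every gene but Wdr19, and Kifap3 stands highest at 249 to 288 CPM.

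Per kilobase of exon, the level allows genes to be compared with each other. Kifap3 led at 67.8 CPM per kb (mean of 7 libraries, range 61.97 to 71.7), and its range did not overlap that of the next gene. Kif3a followed at 22.8, Ift20 at 18.7 and Kif3b at 16.4 CPM per kb, with Ift20 overlapping both of its neighbours. The train subunits Ift57 and Ift22 came next, at 12.9 and 12.3 CPM per kb, and overlapped each other. From Ift172, at 7.05 CPM per kb, down to the lowest gene each range overlapped that of its neighbour. By role the medians were 19.6 CPM per kb for kinesin-2, 7.05 for the IFT-B periphery, 5.48 for the IFT-B core, 5.88 for dynein-2, 4.90 for the BBSome, 3.29 for IFT-A and 1.44 for the chaperonin-like pair. Exon length was the union over all annotated transcripts, which lowers the value of genes with many long isoforms.

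Other cilium genes were taken from lists written with earlier results of these data known. Further transport subunits and regulators had 7 higher and 9 lower of 16 tested genes (median log2 fold change -0.012), and 0 were at an unadjusted p under 0.05. Their summed CPM did not overlap between groups and was lower in NIHHL, at 486.8 to 509.5 against 515.5 to 516.3 in Control. A large part of these sums was Kif3c alone, at 256 ± 10.7 CPM in Control and 247 ± 4.59 in NIHHL. Its groups overlapped (-0.05, SE 0.06), so the sums do not describe the list as a whole. Dynlt2b, a dynein-2 light chain, was at 9.71 ± 1.21 CPM in Control and 8.06 ± 1.09 in NIHHL (-0.27, SE 0.14), and Ift70b at 18.1 ± 1.18 and 20.4 ± 1.76 CPM (0.18, SE 0.10). Ift70b is near-identical to Ift70a1 and Ift70a2, so its reads could be divided among them. The basal body list, which anchors the cilium, had 4 higher and 8 lower of 12 (median -0.0049), such as Fbf1 (0.09, SE 0.07) and Cep19 (-0.09, SE 0.07).

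The transition zone, the gate at the base of the cilium, had 16 of 19 tested genes higher (median 0.09), beside 49.9% of all genes. At an unadjusted p under 0.05 by edgeR there was 1 (5.26% of the 19), beside 3.63% of all genes. That gene was Tctn2, a tectonic of the gate, at 14.99 ± 2.89 CPM in Control and 19.2 ± 2.19 in NIHHL (log2 fold change 0.35, SE 0.14). Its groups overlapped, and its log2 fold change was 0.22 without Control replicate 1. Tmem231, a membrane protein of the same gate, had 0.19 (SE 0.11). In 1 of the 19 (5.26%), Nphp4, every NIHHL library exceeded all of Control, beside 2.84% of all genes. Its log2 fold change was 0.14 (SE 0.10, unadjusted p = 0.186 by edgeR). None of the 19 passed over all genes by edgeR, and DESeq2 and limma-voom also called none of them.

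Cargo of neuronal cilia had 6 higher and 7 lower of 13 genes (median -0.0039). Adcy3, the adenylyl cyclase that marks neuronal cilia, stood at 53.4, 52.2 and 50.2 CPM in Control, against 47.1, 47.4, 45.1 and 49.0 CPM in NIHHL. Every NIHHL library of Adcy3 lay below every Control library. This held for 2 of the 13 genes (15.4%), beside 2.37% of all genes. At an unadjusted p under 0.05 by edgeR there were 0 of the 13, beside 3.63% of all genes. The log2 fold change of Adcy3 was -0.14 (SE 0.07), with an adjusted p = 0.996 by edgeR and an exact permutation p = 0.0286, the smallest the design allows. Cenpo, on the opposite strand, shares 1380 exon bases with Adcy3, so reads from that stretch cannot be assigned without strand. Gpr161, an orphan receptor of cilia that restrains Hedgehog signalling, had 0.18 (SE 0.11), and the somatostatin receptor Sstr3 -0.12 (SE 0.12).

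Hedgehog genes, whose pathway runs through the cilium, had 8 higher and 2 lower of 10 (median 0.05). In 3 of the 10, Smo, Hhip and Gas1, every library of NIHHL exceeded all of Control, beside 2.84% of all genes. Hhip, a decoy receptor for Hedgehog ligands, stood at 11.8, 7.47 and 10.8 CPM in Control, against 11.97, 13.2, 12.3 and 15.2 CPM in NIHHL. NIHHL replicate 1 was close to Control replicate 1 (log2 fold change 0.40, SE 0.16, adjusted p = 0.996 by edgeR, exact permutation p = 0.0286), and the log2 fold change was 0.23 without Control replicate 2. Smo, the signal transducer, was at 21.8 ± 1.74 and 24.9 ± 1.23 CPM (0.19, SE 0.09), and the target gene Gli1 was at 1.61 CPM in Control and 1.65 in NIHHL.

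The 24 markers of ependymal motile cilia, which include axonemal dyneins and Foxj1 and none of the 33 genes, were all higher in NIHHL. Among all tested genes 49.9% were higher. Their median log2 fold change was 0.51 for the 24 markers, and 17 of these were at an unadjusted p under 0.05 by edgeR. Beside them stand 3.63% of all genes at that p in either direction and 2.32% in the higher one. This list follows the gene named in the series' title and earlier results of these data. Its members summed to 122, 151 and 152 CPM in Control replicates 1 to 3 and 219, 216, 188 and 187 CPM in NIHHL replicates 1 to 4, without overlap. The lists therefore had different shares of higher genes, 24 of 24 against 20 of 33, but the difference between them was not tested. None of the 24 passed over all genes by edgeR or limma-voom, and DESeq2 called 1 of them, the axonemal dynein Dnah6 (log2 fold change 0.81, adjusted p = 0.0471).

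**Figure D3:**
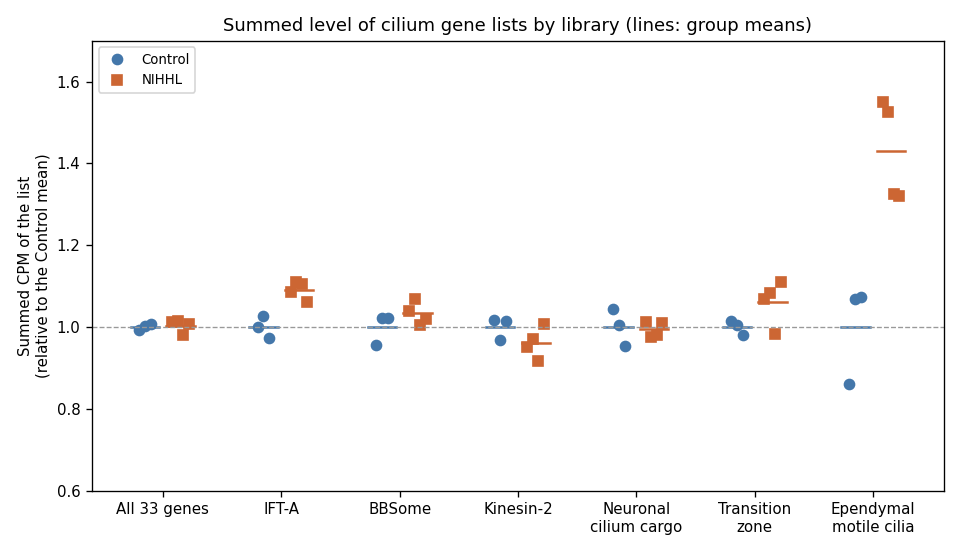
Summed CPM of 7 cilium gene lists in each library, divided by the Control mean of that list, with Control as circles, NIHHL as squares and group means as short lines. The sums of the 33 genes overlap between groups, while those of IFT-A (148 to 157 against 162 to 169 CPM) and of the ependymal markers do not.

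The ependymal score, the mean log2 CPM of those 24 markers, was 2.08, 2.44 and 2.43 in Control and 2.98, 2.95, 2.76 and 2.73 in NIHHL. With this score as a covariate beside group, the median log2 fold change of the 33 went from 0.016 to -0.05 and the genes with a fitted log2 fold change above 0 from 20 to 14. The fold changes of the IFT-A genes Wdr19 and Wdr35 were then 0.18 (SE 0.18) and 0.10 (SE 0.16). The largest shifts among the 33 were those of Bbs5 from -0.0074 to -0.69, Dync2li1 from 0.032 to -0.57, Ift43 from -0.23 to -0.73 and Ift20 from -0.10 to -0.58. Ttc21b went from -0.18 to -0.51 and Bbs12 from -0.011 to 0.30. The adjusted p of Dync2li1 in that fit was 0.442 by edgeR. Tctn2, of the transition zone, turned from 0.35 to -0.16, and Hhip went from 0.40 to 0.92. The score did not overlap between groups, so this fit separates score from group only weakly.

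Gene length went with the values of several libraries. Among the 33 genes the Spearman correlation between exon length and the deviation of log2 CPM from the gene's mean was -0.56 in Control replicate 2 and 0.51 in NIHHL replicate 4, and between -0.38 and 0.20 in the other 5 libraries. Over 8383 genes of mean log2 CPM above 4 it was -0.58 and 0.52 in those libraries. It was 0.45 in Control replicate 1, where the 33 genes had 0.08. The log2 CPM had a prior count of 2 for the 8383 genes and none for the 33, so the measures differ slightly. All these correlations are descriptions over genes that share a library, not independent points. The log2 fold change of the 33 genes had a correlation of 0.55 with length, beside 0.18 over 14393 genes, and 0.39 after a length correction. Of the 16 longest genes 12 were higher in NIHHL (median 0.07), and of the 17 shortest 8 were (median -0.0074). The 33 genes had a median exon length of 4582 bases, beside 4540 bases over all genes with a length, and ran from 1525 bases in Ift20 to 16348 in Dync2h1. Wdr19 and Wdr35, at 11278 and 7273 bases, were among the longer genes, and with the length correction their log2 fold changes were 0.155 and 0.14, and 0 of the 33 genes had an unadjusted p under 0.05. Ift43, at 1651 bases, was the next to shortest.

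**Figure D4:**
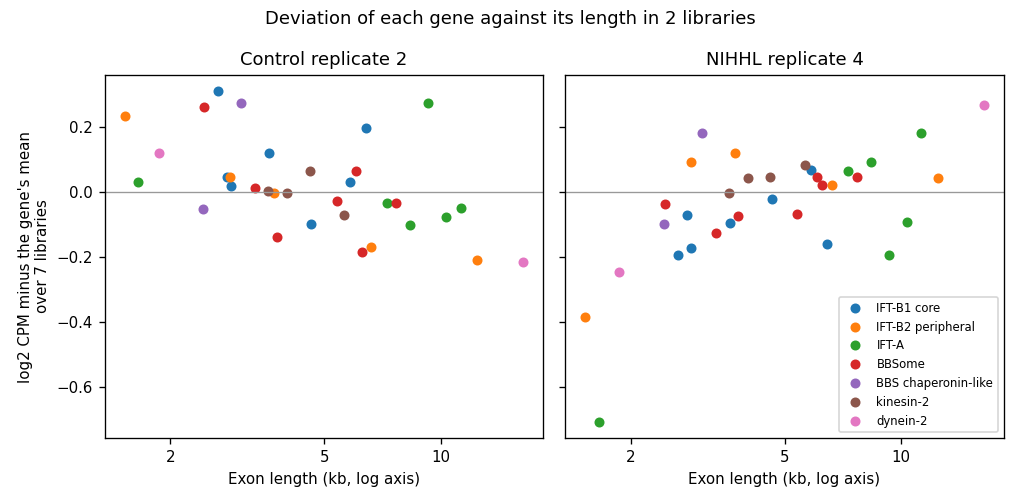
Deviation of log2 CPM from the gene's mean over 7 libraries against exon length (log axis), for the 33 genes in Control replicate 2 and NIHHL replicate 4, coloured by role. Points fall with length in Control replicate 2 (Spearman -0.56) and rise in NIHHL replicate 4 (0.51), where Ift43 is the lowest point.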

How the data were processed

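The authors deposited expected counts per gene (90.7% of values whole), without scaling. DESeq2, HISAT2, Bowtie2 2.2.8 and StringTie 1.3.1 are listed, with no roles, in the submitters' processing notes. For genome build, counting step and strand setting: not given in the sources used here. Counts were rounded and filtered with edgeR's filterByExpr (minimum count 10), which left 14417 of 21965 genes. CPM values use trimmed mean of M values (TMM) factors, and log2 CPM a prior count of 2. The group difference was tested in edgeR (quasi-likelihood, robust, group as the term) with Benjamini-Hochberg adjustment over all genes, called under 0.05. The standard error is the absolute log2 fold change over the square root of F. Alternatives used DESeq2, limma-voom, other scaling and filter settings, left-out libraries, a replicate block, an ependymal covariate and a length correction (loess on log2 exon length, GENCODE M21, GRCm38). The scripts were tested on simulated data. Software was R 4.3.3, edgeR 4.0.16, limma 3.58.1 and DESeq2 1.42.0.

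The 33 genes and all lists were chosen with earlier results of these data known. Values by library were given for the 2 genes of smallest p in each role (1 in roles of 2 genes) and any at p under 0.05. From the further transport, basal body, transition zone, cargo and Hedgehog lists, the 2 genes of smallest p and any at p under 0.05 were named. Of these, Adcy3 and Hhip were given by library and the others as means or fold changes. Ift122, Ift140, Ttc21b, Ift43 and the other genes named beyond these were added for completeness or after their values were seen. Between 16292 and 16825 genes had a count in a library. Of the 33 genes, 31 had whole counts in every library, and 5 share exon bases with another gene: Bbs4, Bbs12, Ift57, Ift88 and Kif17. Where the other gene lies on the opposite strand, reads there are uncertain without strand information. Kif17 shares 74 bases with Sh2d5, and Bbs12 shares 32 with Gm43439, on the same strand, where strand would not separate the reads.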

Additional observations from a re-analysis of the deposited data

Results flagged for a closer look

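In the 4 NIHHL libraries, 2 of 33 genes had a library far from the others by Dixon's test, where chance flags about 1 in 20 groups. Ift43 stood at 4.07 CPM in NIHHL replicate 4 against 6.95 to 7.21 CPM in the other 3 libraries, and Bbs9 at 14.26 CPM in NIHHL replicate 3 against 12.3 to 12.5 CPM. The longest and shortest genes deviated in opposite directions in NIHHL replicate 4, and the part of that trend in the Ift43 value was not tested.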

How the results depend on the processing

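Under every alternative run, 0 of the 33 genes were called, and 14 to 23 had a log2 fold change above 0. Over all genes DESeq2 called 4, the fit without both Control replicate 2 and NIHHL replicate 4 called 1, and the fit with the ependymal covariate called 1; the cause was not tested. The median log2 fold change of the 33 was 0.064 without both those libraries and -0.0503 with the covariate, and ran from -0.013 to 0.049 when single libraries were left out. With the covariate the role medians were -0.21 for the IFT-B core, -0.032 for its periphery, 0.14 for IFT-A, -0.071 for the BBSome, 0.045 for kinesin-2 and -0.14 for dynein-2.

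The replicate numbers were not used to pair the libraries in the main fit. Deviations of same-numbered libraries had correlations of -0.45, -0.45 and 0.061. No Control library correlated best with its own number. Control replicate 1 did so with NIHHL replicate 2 (0.396), Control replicate 2 with NIHHL replicate 1 (0.48) and Control replicate 3 with NIHHL replicate 2 (0.145). Of the NIHHL libraries, replicate 3 correlated best with its own number, at the 0.061 above. With so few same-numbered libraries, these values cannot settle whether libraries of the same number were handled together. With a replicate block 0 genes were called and 339 were at an unadjusted p under 0.05, beside 523 without it. The block turned the sign of the log2 fold change in Ift74 (0.0048), Ift20 (0.0056), Bbs5 (0.016), Bbs12 (0.011) and Kif3b (-0.026).

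Small fold changes turned sign elsewhere too, and the cause was not tested. With the covariate they were Ift22 -0.25, Ift27 -0.27, Traf3ip1 -0.053, Bbs2 -0.31, Bbs7 -0.18, Bbs10 -0.065, Bbs12 0.30 and Dync2li1 -0.57. Without both libraries they were Ift46 0.05, Ift52 0.015, Ift74 0.15, Ift20 0.091, Bbs5 0.15, Kif3b -0.058 and Dync2h1 -0.029. With the length correction they were Bbs5 0.025, Bbs12 0.0071 and Kif3b -0.015, and with limma-voom Bbs12 0.012. Leaving out single libraries gave Ift22 -0.064 to 0.082, Ift27 -0.045 to 0.074, Ift46 -0.13 to 0.0099, Ift74 -0.18 to 0.10, Ift57 -0.087 to 0.045, Bbs2 -0.055 to 0.061, Bbs4 -0.044 to 0.014, Bbs5 -0.14 to 0.14, Bbs10 -0.017 to 0.26, Bbs12 -0.087 to 0.10, Kif3b -0.029 to 0.028, Kif17 -0.054 to 0.089 and Dync2li1 -0.086 to 0.11. Depth limits Bbs10 and Bbs12 most, which had the lowest CPM.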
